A study of Mus musculus with 6 samples.

Results

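The 10 genes described here encode transcription factors of the luminal mammary lineage: *Gata3*, *Foxa1*, *Elf5*, *Elf3*, *Ehf*, *Grhl2*, *Spdef*, *Tbx3*, *Tfap2c* and *Ovol1*. They were chosen by name, not by their values, and all 10 were found among the 61880 rows and 53912 assembled loci of the count table. The sequenced RNA came from epithelial cells of the inguinal mammary glands of female mice aged 6 to 8 weeks, as 3 pooled *fat-1* isolates and 3 pooled WT isolates. The *fat-1* mice are FVB/NJ animals that carry a transgene for a roundworm desaturase, which converts *n*-6 polyunsaturated fatty acids (PUFA) into *n*-3 PUFA, and the WT mice are FVB/NJ animals without it. Both genotypes ate the same modified AIN93G diet with safflower oil, rich in *n*-6 PUFA, at 10% fat by weight (22% of energy). The comparison of the genotypes asks how lifelong *n*-3 PUFA act on gene expression in the pubertal gland. According to the methods an isolate pools 2 to 3 mice (the paragraph on isolation gives 6 to 8), lymph nodes were removed before digestion, and no cell sorting is described. The promoter that drives the transgene is not given in the sources used here, and the transgene's RNA was not analysed here, so the genotype labels were not checked against it.

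Mammary ducts have an inner luminal layer, made of hormone-sensing cells and of progenitors of the milk-secreting alveoli, and an outer basal layer of contractile cells. *Gata3*, a zinc-finger factor, and *Foxa1*, a forkhead factor that opens chromatin for the estrogen receptor, act in luminal cells and are needed for ductal growth at puberty. *Elf5*, *Elf3*, *Ehf* and *Spdef* are ETS factors restricted mostly to epithelia, and *Elf5* drives the alveolar branch of the lineage. *Grhl2* activates genes of epithelial junctions, and *Ovol1* is a zinc-finger repressor that acts in epithelial cells. *Tbx3* is a T-box factor required for the early mammary bud, and *Tfap2c* (AP-2 gamma) acts with the estrogen receptor in luminal cells.

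The counts of an isolate summed to between 204539059 and 232148824, so that 3 counts correspond to 0.0132 to 0.0146 CPM (counts scaled to the same normalized library total). Each genotype has only 3 isolates. The isolates differed in the RNA of cell type markers. The summed level of 7 epithelial markers (*Krt8*, *Krt18*, *Krt19*, *Epcam*, *Cdh1*, *Cldn3* and *Cldn7*, all detected) was 3602, 841 and 1516 CPM in *fat-1* isolates 1, 2 and 3 and 2849, 1680 and 879 CPM in WT isolates 1, 2 and 3, a range of 4.28-fold. The sum of 11 immune markers ran the other way, from 1133 to 2506 CPM in the *fat-1* isolates and from 1154 to 2550 CPM in the WT isolates. Other cell types were present in both genotypes: 6 fibroblast markers summed to 1354 to 4855 CPM in *fat-1* and 2896 to 4601 CPM in WT, and 8 basal markers to 164 to 617 CPM and 156 to 491 CPM. Of 6 adipocyte markers, 5 (*Adipoq*, *Plin1*, *Cidec*, *Lep* and *Cfd*) stayed under 1 CPM in every isolate. The markers of mammary epithelium were present in all 6 isolates, but *fat-1* isolate 2 and WT isolate 3 held the least epithelial and the most immune RNA. In such bulk samples, fewer cells of a type and less RNA per cell cannot be told apart.

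Promoter sequence is shown for 3 starts as description, and a part of promoters in the levels of the members was not tested. RefSeq promoters on GRCm38.p6 were found for 5 members (6 starts), and the windows printed are the 200 bases from 250 to 51 bases before a start, 5′ to 3′ on the gene's strand. Those of *Foxa1* (chr12:57546162-57546361, minus strand), *Spdef* (chr17:27729002-27729201, minus strand) and the downstream start of *Elf5* (chr2:103423818-103424017, plus strand) hold no annotated exon. *Ehf*, *Grhl2*, *Tbx3*, *Tfap2c* and *Ovol1* were not matched. Capitals mark a match on either strand to a short motif of the members' own families.
Foxa1: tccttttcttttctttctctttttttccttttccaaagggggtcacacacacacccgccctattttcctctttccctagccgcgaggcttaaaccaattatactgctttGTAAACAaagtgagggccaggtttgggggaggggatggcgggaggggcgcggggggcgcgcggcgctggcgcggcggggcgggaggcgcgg
Spdef: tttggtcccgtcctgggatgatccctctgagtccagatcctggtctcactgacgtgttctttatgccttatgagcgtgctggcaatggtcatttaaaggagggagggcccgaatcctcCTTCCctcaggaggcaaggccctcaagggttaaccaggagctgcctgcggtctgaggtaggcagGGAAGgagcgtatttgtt
Elf5: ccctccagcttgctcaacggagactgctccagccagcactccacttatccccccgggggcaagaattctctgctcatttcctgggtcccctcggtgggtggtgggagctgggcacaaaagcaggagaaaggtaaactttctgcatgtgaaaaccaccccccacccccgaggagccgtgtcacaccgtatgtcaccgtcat
The *Foxa1* window holds the forkhead motif GTAAACA from position 110, counted from 1 at the 5′ end, and 2.58% of 32851 mouse promoter windows of the same length hold it. The *Spdef* window holds the ETS motif GGAAG at positions 119 and 183, the former on the opposite strand, but 55% of promoters hold these letters. In the *Elf5* window none of the 6 motifs searched was found, the others being AGATAA (bound by the family of *Gata3*, in 8.42% of promoters), AACCGG (by that of *Grhl2*, 4.28%), GCCNNNGGC (by AP-2 factors, 10.6%) and AGGTGT (by T-box factors, 9.86%). The windows of the other starts overlap annotated exons and are not printed, but they also hold matches. That of the upstream start of *Elf5* has GGAAG at position 148 and the T-box motif at position 95. That of *Gata3* has 3 matches to the AP-2 motif, and that of *Elf3* has AACCGG at position 183. These are matches of letters and not binding sites.

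*Gata3* (chromosome 2, 9857078 to 9890034, GRCm38, minus strand) was at 67.5, 26.4 and 50.9 CPM in *fat-1* isolates 1, 2 and 3 and at 79.8, 54.8 and 26.6 CPM in WT isolates 1, 2 and 3, all as the sum of the rows of its locus. *Foxa1* (chromosome 12, 57540628 to 57546916, minus strand) was at 59.7, 13.2 and 31.4 CPM in *fat-1* and at 67.6, 36.4 and 14.7 CPM in WT. In both genes WT isolate 1 was the highest and *fat-1* isolate 2 the lowest, and the genotypes overlapped. *Gata3* varied 3.02-fold and *Foxa1* 5.12-fold over the 6 isolates. *Gata3* is also a factor of T cells, and 12 T cell markers summed to 208, 394 and 237 CPM in *fat-1* and to 178, 222 and 399 CPM in WT, highest in the isolates where *Gata3* was lowest. The share of *Gata3* RNA from T cells was not tested.

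*Tbx3* (chromosome 5, 119670669 to 119684724, plus strand) was at 43.9, 14.01 and 26.8 CPM in *fat-1* and at 48.2, 31.8 and 15.2 CPM in WT. *Tfap2c* (chromosome 2, 172549593 to 172558622, plus strand) was at 15.5, 3.82 and 9.48 CPM in *fat-1* and at 18.1, 9.47 and 3.97 CPM in WT. These factors had the same highest and lowest isolates as *Gata3* and *Foxa1*. Their ranges were 3.44-fold and 4.75-fold.

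Among the ETS factors, *Elf5* (chromosome 2, 103411688 to 103450989, plus strand) had the widest range of the 10 genes, 6.57-fold. It was at 12.1, 3.70 and 12.4 CPM in *fat-1* and at 24.3, 16.4 and 4.41 CPM in WT. WT isolates 1 and 2 lay above all *fat-1* isolates and WT isolate 3 lay near the lowest, so the genotypes overlapped. Its mean level was 9.42 ± 4.96 CPM in *fat-1* and 15.03 ± 10.01 CPM in WT (SD, n = 3). *Ehf* (chromosome 2, 103263433 to 103303278, minus strand) lies 108 kb from *Elf5*, with 3 annotated genes between them, but its pattern differed. It was at 93.8, 19.7 and 41.2 CPM in *fat-1* and at 77.8, 48.6 and 24.2 CPM in WT. *Ehf* was highest in *fat-1* isolate 1, where *Elf5* reached only 12.1 CPM. The ratio of *Ehf* to *Elf5* accordingly ran from 2.97 in WT isolate 2 to 7.72 in *fat-1* isolate 1.

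*Elf3* (chromosome 1, 135253575 to 135258568, minus strand) followed *Ehf*, at 35.6, 8.52 and 17.8 CPM in *fat-1* and at 28.7, 20.2 and 8.52 CPM in WT. The ratio of *Elf3* to *Ehf* stayed between 0.353 and 0.433 in the 6 isolates. *Spdef* (chromosome 17, 27714352 to 27728955, minus strand) was the lowest member and varied least, 2.12-fold, at 3.53, 1.75 and 2.88 CPM in *fat-1* and at 3.26, 2.59 and 1.66 CPM in WT. Both were highest in *fat-1* isolate 1, and the genotypes overlapped.

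*Grhl2* (chromosome 15, 37233036 to 37363569, plus strand) was at 29.2, 5.64 and 12.4 CPM in *fat-1* and at 23.6, 15.7 and 7.02 CPM in WT. *Ovol1* (chromosome 19, 5549136 to 5560646, minus strand) was at 17.9, 3.60 and 8.47 CPM in *fat-1* and at 13.0, 7.27 and 3.54 CPM in WT. *Fat-1* isolate 1 was the highest for both, and the lowest was *fat-1* isolate 2 for *Grhl2* and WT isolate 3 for *Ovol1*. Antisense genes or genes on the opposite strand overlap *Gata3*, *Elf3*, *Grhl2*, *Tbx3* and *Ovol1*, and since the sources used here do not say whether counting used strand, the reads of such partners cannot be told apart.

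**Figure D1:**
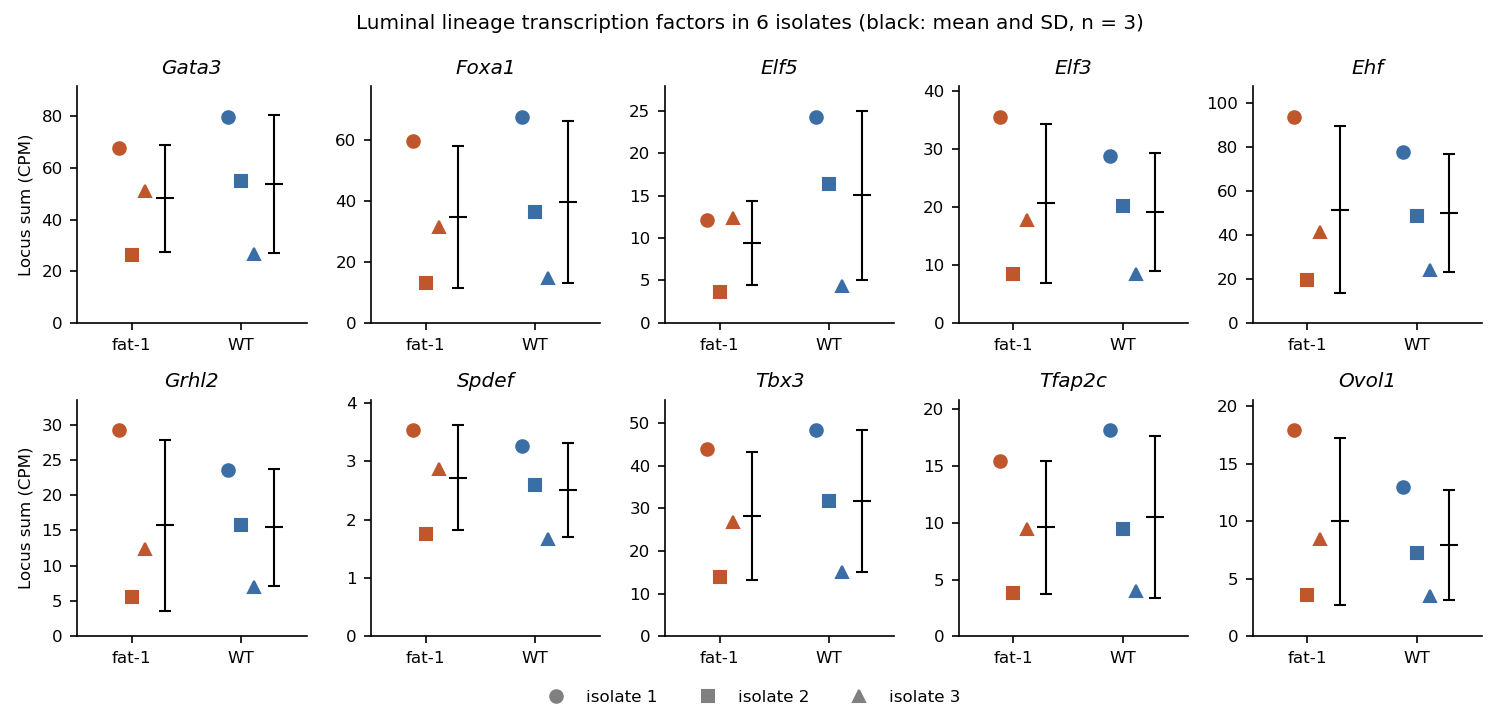
Level of each transcription factor (CPM of the locus sum, linear axis from 0) in the 3 *fat-1* and 3 WT isolates, with the symbol giving the isolate number and black bars the mean and SD (n = 3). For all 10 genes the genotypes overlap, and *fat-1* isolate 2 and WT isolate 3 are the lowest isolate of their genotype.

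None of the 10 factors passed the threshold for a genotype difference in the quasi-likelihood test of edgeR, with p-values adjusted by the Benjamini–Hochberg method over all loci. All 10 had enough counts to be tested, 0 passed an adjusted or an unadjusted p-value of 0.05, and the adjusted p was 1.00 for each. Over all 24061 loci tested, 0 (0.0%) passed the adjusted threshold and 274 (1.14%) the unadjusted one. DESeq2 gave 8 loci at its adjusted threshold and 359 unadjusted, with no member among either. Of the members, 5 had a positive and 5 a negative log2 fold change (*fat-1* relative to WT), with a median of −0.06 beside 0.0018 over all loci tested. The groups did not overlap for 0 of the 10 members, against 4.15% of loci tested.

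The estimates had wide intervals. The largest was for *Elf5*, with a log2 fold change of −0.67 (SE 0.69, 95% confidence interval −2.34 to 0.99), and it stayed negative when each isolate was left out in turn, between −1.10 and −0.14. *Ovol1* came next, at 0.33 (SE 0.67). The rest lay between −0.19 for *Foxa1* (SE 0.69) and 0.12 for *Spdef* (SE 0.34). Each of these 9 changed sign without at least 1 isolate. The positive values of *Elf3*, *Ehf*, *Grhl2*, *Spdef* and *Ovol1* turned negative without *fat-1* isolate 1 (*Ovol1* to −0.39) and without WT isolate 3 (*Ovol1* to −0.014). The negative values of *Gata3*, *Foxa1*, *Tbx3* and *Tfap2c* turned positive without *fat-1* isolate 2 (*Foxa1* to 0.20) and without WT isolate 1 (*Foxa1* to 0.44).

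Since the epithelial markers differed 4.28-fold among isolates, the test was repeated with their mean log2(CPM + 1) as a covariate. The standard errors of the members became smaller, 0.08 for *Ehf* in place of 0.63, 0.13 for *Foxa1* in place of 0.69 and 0.37 for *Elf5* in place of 0.69. The adjusted p remained 1.00 for the 10 members. *Ovol1* was at 0.25 (SE 0.10, 95% confidence interval 0.0085 to 0.50) with an unadjusted p of 0.0445 by edgeR, 1 of 10 members beside 616 of 24061 loci (2.56%). *Elf5* was at −0.50 (SE 0.37), and the other members lay between −0.17 for *Foxa1* and 0.12 for *Spdef*, 3 of the 10 being above 0. The interval was −1.38 to 0.38 for *Elf5*, and those of the other 9 lay within 0.5 of 0 on the log2 scale, for example −0.26 to 0.11 for *Ehf*.

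**Figure D2:**
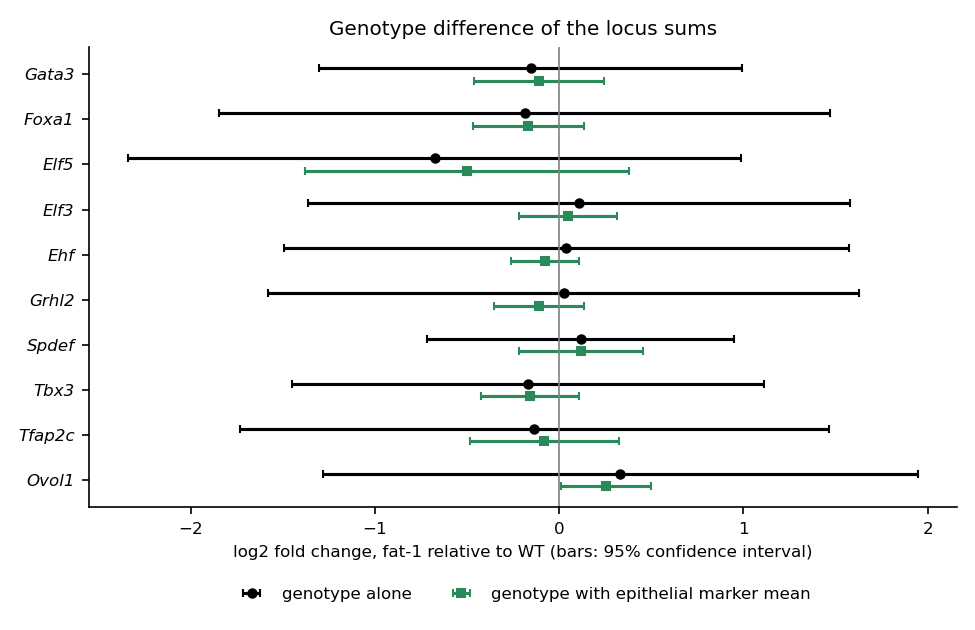
Log2 fold change of each transcription factor, *fat-1* relative to WT, with 95% confidence intervals from edgeR, with genotype alone (black circles) and with the epithelial marker mean as a covariate (green squares). Every interval with genotype alone spans 0, and with the covariate the interval of *Ovol1*, 0.0085 to 0.50, is the only one that does not.

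The levels of the factors were compared per length, as CPM per kb of the merged annotated exons. Averaged over the 6 isolates, *Gata3* was the highest at 12.8 CPM per kb, followed by *Foxa1* (11.2), *Ehf* (9.12), *Elf3* (8.98), *Tbx3* (4.53), *Tfap2c* (2.73), *Ovol1* (2.57), *Elf5* (2.08), *Grhl2* (1.81) and *Spdef* (1.13). The ranges over isolates of every pair of neighbours in this order overlapped, for example 6.63 to 20.1 for *Gata3* and 3.97 to 20.3 for *Foxa1*. The order of this pair turned in the isolates with the most epithelial markers, where *Foxa1* was at 17.9 and *Gata3* at 17.0 CPM per kb in *fat-1* isolate 1 and at 20.3 and 20.1 CPM per kb in WT isolate 1. *Elf5* spanned 0.629 to 4.13 and *Spdef* 0.722 to 1.53 CPM per kb.

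For 3 members the assembled locus had several rows, so that the row with the gene's symbol does not hold all of its reads. *Foxa1* showed this most. Its symbol row held 433, 723 and 80 counts in *fat-1* and 472, 774 and 17 counts in WT, and the row without a symbol held 12157, 2112 and 6460 counts in *fat-1* and 13999, 7482 and 3004 counts in WT. The symbol row was thus 3.44%, 25.5% and 1.22% of the locus in *fat-1* and 3.26%, 9.38% and 0.563% in WT, and its fold change (log2 0.03, SE 1.23) had the opposite sign to that of the locus sum. *Grhl2* had 96.3%, 54.8% and 69.6% of its locus in the symbol row in *fat-1* and 72.2%, 48.5% and 85.1% in WT. *Gata3* had between 51.3% and 65.8%, and its locus also held a row named *9230102O04Rik* with at most 0.450 CPM. The genotype difference in these shares was within the spread by a two-sided exact permutation test, with p = 0.5 for *Gata3*, 0.6 for *Foxa1* and 0.8 for *Grhl2*, where 0.1 is the smallest p that 3 against 3 allows. Over all rows in place of loci, 0 of 30683 (0.0%) passed the adjusted threshold and 678 (2.21%) the unadjusted one, and 0 of the 10 symbol rows passed either.

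**Figure D3:**
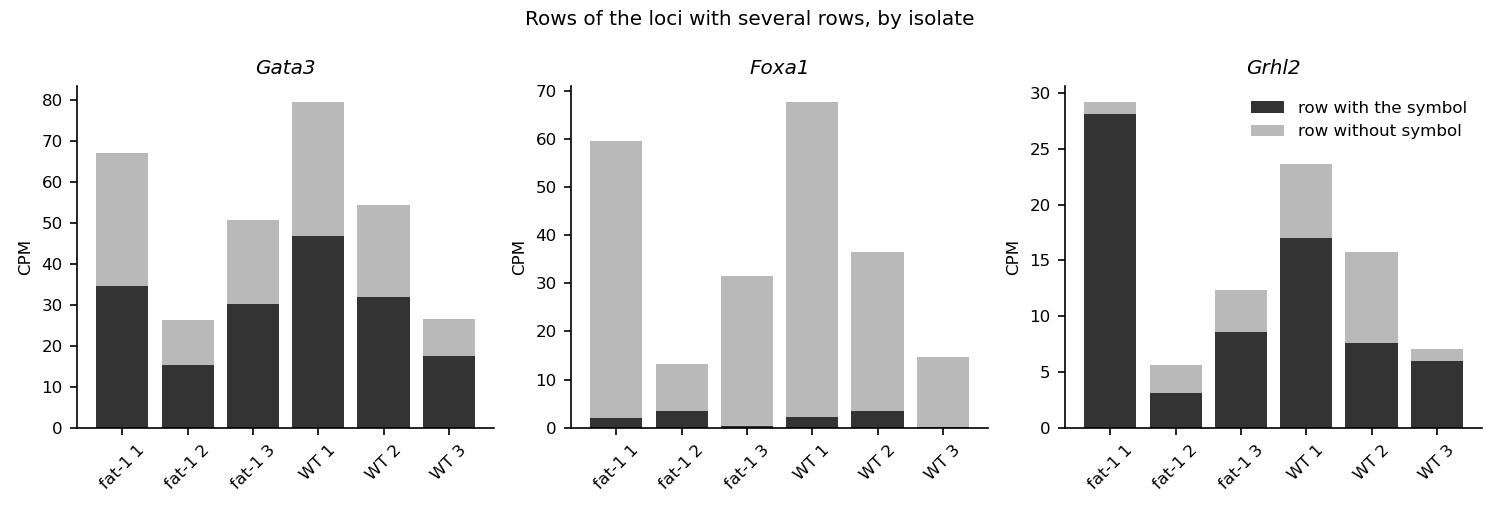
Level (CPM) of the row with the gene symbol (dark) and of the row without a symbol (light) for the 3 factors whose locus has several rows, in each of the 6 isolates. The row without a symbol holds most of *Foxa1* in every isolate, while the split of *Grhl2* varies from 48.5% to 96.3% in the symbol row.

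The level of the factors followed that of the epithelial markers across the isolates. On log2(CPM + 1), Pearson's r with the marker mean was positive for 10 of 10 factors, from 0.844 for *Elf5* to 0.997 for *Ehf*, and Spearman's rho was from 0.657 to 1. By exact permutation over pairings and Benjamini–Hochberg adjustment over 20 relations, 9 of the 10 had an adjusted p at or under 0.05 for either coefficient (n = 6). The exception was *Elf5* (exact p = 0.0569, adjusted 0.0569, and adjusted 0.175 for rho). The share of all loci that pass was not computed, so the count of 9 is not a result about the members. Without the isolates farthest from the median marker level, *fat-1* isolates 1 and 2, r was between 0.935 and 0.999 over the remaining 4. Within genotypes, after the mean of each was removed, it was between 0.880 and 0.998. Against the immune marker mean, r was negative for 10 of 10, from −0.912 for *Elf5* to −0.994 for *Tbx3*. By permutation 10 of these passed for r and 9 for rho. Without WT isolate 3 and *fat-1* isolate 2 the range was −0.519 for *Elf5* to −0.988 for *Tbx3*. The share of all loci was not computed here either, so these counts are not results about the members. All points share the library total, and epithelial and immune markers changed in opposite directions, so their parts cannot be told apart.

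Factors differed in how steeply they followed the markers. The slope on the log2 scale was 1.02 for *Ehf*, 1.01 for *Grhl2* and 1.10 for *Foxa1*, but 0.74 for *Gata3* and 0.36 for *Spdef*. A slope near 1 means that a factor changed by the same fold as the markers. The pseudocount of 1 flattens the slope of low genes such as *Spdef*, whose CPM itself ranged 2.12-fold beside 4.28-fold for the marker sum.

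**Figure D4:**
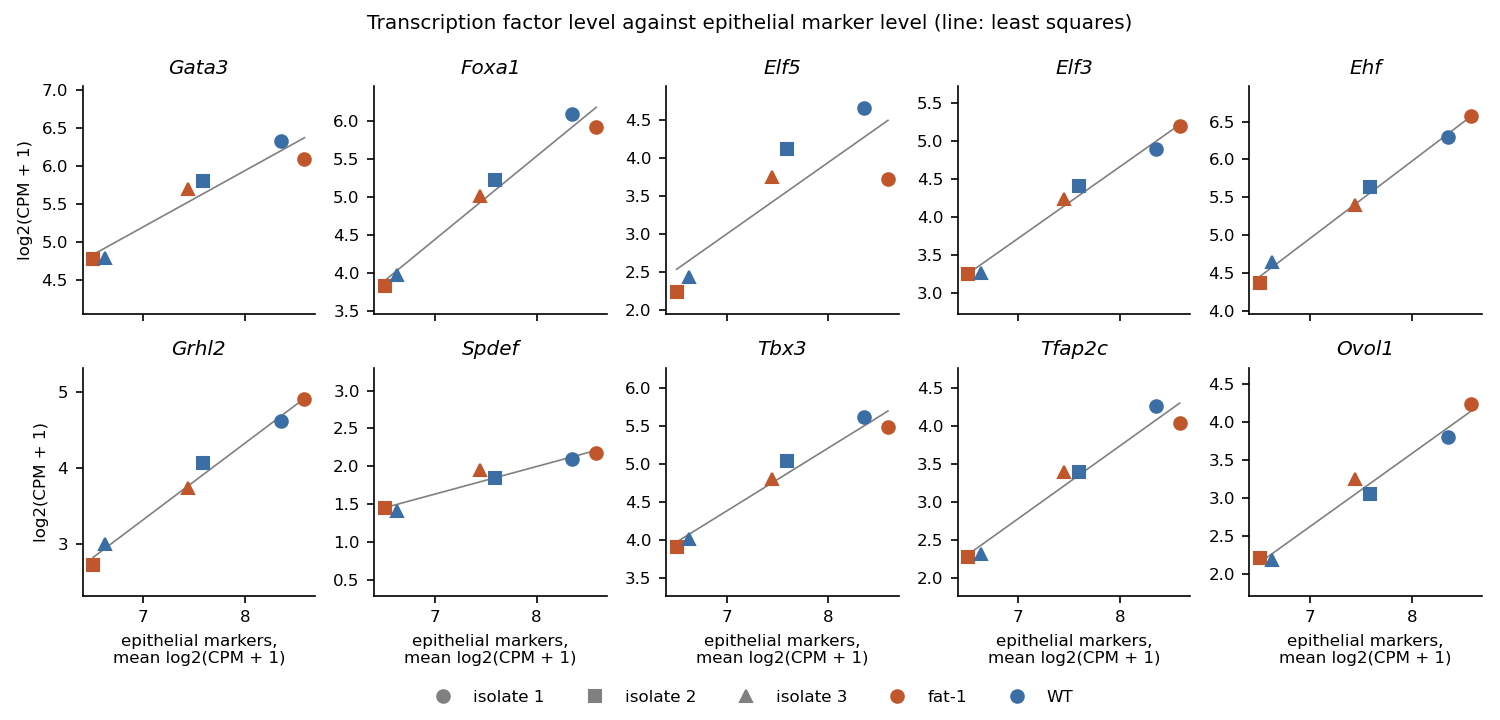
Level of each transcription factor against the mean of the 7 epithelial markers, both as log2(CPM + 1), with 1 point per isolate (color, genotype and shape, isolate number) and a least-squares line, all panels spanning the same height in log2 units. *Ehf* (r = 0.997) lies closest to its line, *Elf5* (r = 0.844) scatters most with *fat-1* isolate 1 below the line, and *Spdef* is the flattest.

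Expressed relative to the epithelial marker mean, 9 of the 10 factors varied less among isolates, which follows from the correlations and slopes above. The share of all loci that varied less on this scale was not computed. The SD over the 6 isolates fell from 0.872 to 0.064 log2 units for *Ehf*, from 0.867 to 0.088 for *Grhl2*, from 0.814 to 0.111 for *Elf3* and from 0.953 to 0.183 for *Foxa1*. *Elf5* kept an SD of 0.515, and that of *Spdef* increased from 0.322 to 0.552. For *Elf5* the relative level was −4.87, −4.28 and −3.70 in *fat-1* and −3.69, −3.47 and −4.19 in WT. *Fat-1* isolate 1, the richest in epithelial markers, had the lowest relative *Elf5*. The difference of −0.50 between the genotypes was within the spread (two-sided exact permutation p = 0.2). It was −0.20 without *fat-1* isolate 1 and −0.79 without *fat-1* isolate 3, with the other isolates in between.

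*Ovol1* was the only member whose genotypes did not overlap on this relative scale. Its values were −4.35, −4.30 and −4.20 in *fat-1* and −4.55, −4.54 and −4.45 in WT, a difference of 0.23 with the smallest exact permutation p that the design allows (0.1). Over all loci tested, 9 (0.0374%) did not overlap in this measure, but few loci follow the markers. Among the 241 loci that did (r over 0.95 and slope 0.8 to 1.2), which include 7 members, 9 did not overlap (3.73%), and all 9 were higher in *fat-1*. With *Epcam* alone as the reference, 3 members did not overlap, *Ovol1* being higher by 0.13 and *Ehf* and *Grhl2* lower, with differences of −0.17 and −0.19 log2 units. In that measure 27 of 24060 loci (0.112%) did not overlap, and 17 of the 270 loci (6.3%) that follow *Epcam* by the same limits, 5 of them higher and 12 lower in *fat-1*. The ratio of *Grhl2* to *Ovol1* was 1.63, 1.56 and 1.46 in *fat-1* and 1.82, 2.16 and 1.99 in WT. Over all 45 ratios between members, 4 (8.89%) did not overlap between the genotypes, those of *Foxa1*, *Ehf*, *Grhl2* and *Tfap2c* to *Ovol1*. These 4 share *Ovol1* and are not separate results. The share among ratios of other loci was not computed, so the count is not a result about the members.

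**Figure D5:**
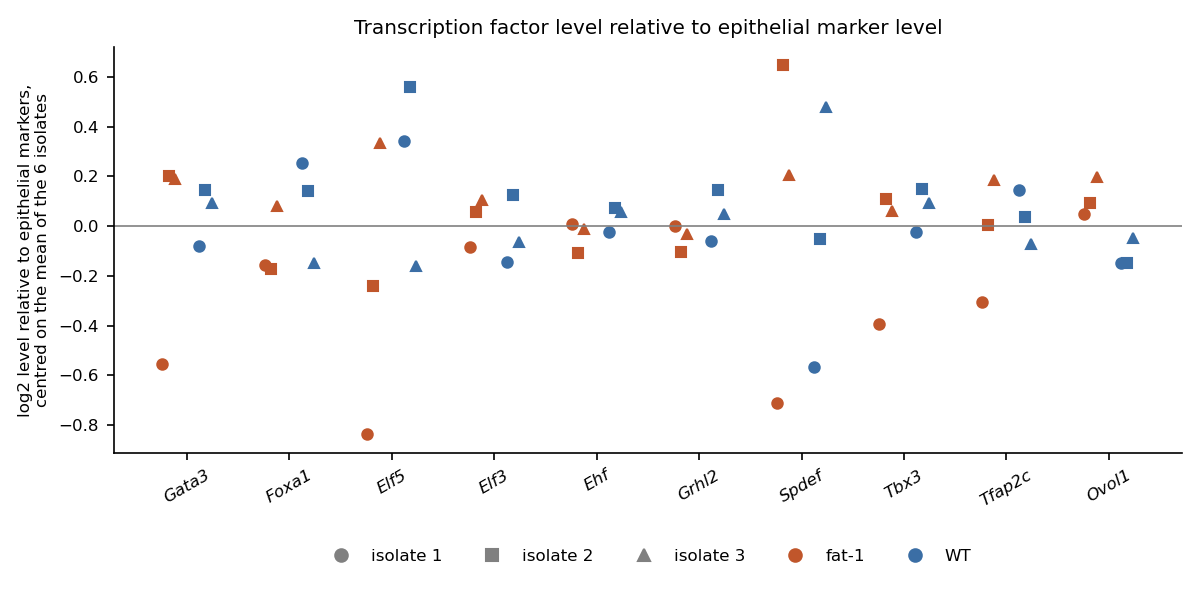
Level of each transcription factor relative to the epithelial marker mean (log2 units, centred on the mean of the 6 isolates) in the *fat-1* (left, orange) and WT (right, blue) isolates. *Ehf* and *Grhl2* lie close to 0, *Elf5* and *Spdef* spread over more than 1 log2 unit, and only for *Ovol1* do the genotypes not overlap.

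*Elf5* also had the lowest correlations with the other members. Over the 45 pairs of members, r on the log2 scale across the 6 isolates was between 0.7998 and 0.999 with a median of 0.974, and 40 pairs were over 0.9. The 5 pairs below were *Elf5* with *Ovol1* (0.7998), *Ehf*, *Grhl2*, *Spdef* and *Elf3*. The highest were *Foxa1* with *Tbx3* and *Ehf* with *Grhl2*, both at 0.999. These coefficients describe isolates that share a varying amount of epithelial RNA, and 1907 of 12543 loci (15.2%) had an r over 0.9 with the mean of the members. Of the ratios with *Elf5* that were computed, the one to *Trp63*, a factor of basal cells, varied least. *Trp63* was the only basal gene set against *Elf5*, so a tie of *Elf5* to basal cells was not tested. Among the basal markers, *Acta2*, *Mylk*, *Oxtr* and *Cnn1* were highest in WT isolate 1, as *Elf5* and *Trp63* were. *Krt5*, *Krt14*, *Krt17* and *Myh11* were highest in *fat-1* isolate 1. *Trp63* was at 6.59, 1.61 and 5.09 CPM in *fat-1* and 13.4, 6.65 and 1.98 CPM in WT. The ratio of *Elf5* to *Trp63* ran only from 1.81 to 2.46, whereas that of *Foxa1* to *Trp63* ran from 5.05 to 9.06. The ratio of *Foxa1* to *Elf5* was 4.91, 3.58 and 2.53 in *fat-1* and 2.79, 2.22 and 3.33 in WT, and the genotypes overlapped.

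Relatives of the members in the same gene families differed in their pattern over the isolates. Of 20 such genes 17 were tested, 0 passed the adjusted threshold, and 1 was lower at the unadjusted one, *Gata2*, at 3.37, 2.92 and 3.10 CPM in *fat-1* and 4.89, 4.19 and 3.68 CPM in WT (log2 −0.44, SE 0.16, edgeR unadjusted p = 0.0315). The median log2 fold change of the relatives was −0.05. The most abundant were *Elf1*, at 196, 240 and 222 CPM in *fat-1* and 188, 212 and 247 CPM in WT, and *Elf2*, at 122 to 128 CPM. *Elf1*, an ETS factor of blood cells, was highest in the isolates where *Elf3*, *Elf5* and *Ehf* were lowest, and *Elf2* hardly varied. *Grhl1* (11.4 to 46.6 CPM), *Tfap2a* (7.10 to 32.7 CPM) and *Tfap2b* (5.31 to 28.7 CPM) had an r of 0.969, 0.988 and 0.995 with the mean of the members, whereas 9 of the 20, among them *Foxa2*, *Foxa3*, *Gata1* and *Gata4*, stayed under 1 CPM or were not detected. In *Tfap2d* the count was 0 in all 6 isolates, which allows up to 0.0132 to 0.0146 CPM.

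Of 18 other regulators of luminal cells, 18 were tested and 0 passed either threshold, with a median log2 fold change of −0.12. *Stat6* (173 to 196 CPM), which acts in luminal differentiation and in immune cells, and *Cebpb* (137 to 179 CPM), a factor needed for ductal and alveolar growth, were the most abundant. *Pgr*, the progesterone receptor, was at 213, 67.2 and 146 CPM in *fat-1* and at 243, 147 and 72.8 CPM in WT, and *Esr1*, the estrogen receptor, at 19.4, 9.00 and 14.1 CPM in *fat-1* and at 23.3, 15.4 and 8.05 CPM in WT. Both followed the members, with r of 0.996 and 0.983 with their mean. Known targets of the factors gave 10 tested genes of 13 and 0 past either threshold (median 0.14). *Cldn4*, a tight-junction protein, was the most abundant at 1155, 237 and 382 CPM in *fat-1* and 752, 390 and 253 CPM in WT, followed by *Epcam* at 197 to 787 CPM. The milk protein genes *Csn2* and *Wap*, targets of the alveolar program, were at most 0.061 and 0.028 CPM, and *Agr2* had no counts.

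Regulators of basal cells gave 7 tested genes of 8, with 0 past the adjusted threshold and 1 lower at the unadjusted one (*Myocd*, edgeR unadjusted p = 0.0304, at 0.210 to 0.375 CPM). *Lbh* (36.2 to 69.1 CPM) and *Sox10* (8.32 to 40.0 CPM) were the most abundant, and their r with the mean of the luminal factors was −0.926 and 0.974. That of *Trp63* was 0.945, of *Id4* 0.937, of *Egr2* 0.616 and of *Snai2* 0.028. Among the marker lists, 0 genes passed the adjusted threshold in any. At the unadjusted threshold *Fabp4* was lower among the 6 adipocyte markers, and 0 of the 7 epithelial, 7 hormone-sensing, 7 luminal progenitor, 8 basal, 11 immune, 12 T cell, 6 fibroblast and 5 endothelial markers passed. The median log2 fold changes were −0.33 for the hormone-sensing and −0.16 for the luminal progenitor markers, beside 0.18 for the epithelial, 0.17 for the basal, 0.13 for the immune, 0.08 for the T cell, −0.26 for the fibroblast, −0.13 for the adipocyte and −0.26 for the endothelial markers and −0.20 for the basal regulators. The most abundant hormone-sensing markers were *Ly6a* (486 to 620 CPM), which immune and stromal cells also express, and *Pgr*, and the most abundant progenitor markers were *Lcn2* (203 to 587 CPM) and *Aldh1a3* (106 to 896 CPM). The locus of *Ly6a* also holds *Ly6i* and that of *Pgr* also holds *Gm16485*, so these sums are not of a single gene. Other listed loci also hold a further symbol, for example *Agxt2* with *Prlr*, *Krt16* with *Krt14*, *Gm47302* with *Col3a1* and *Mir5107* with *Cd74*. In the other lists the most abundant were *Krt8* and *Krt18*, *Myh11* and *Krt5*, *Cd74* and *Cd79a*, *Trbc2* and *Il7r*, *Dcn* and *Col3a1*, *Fabp4* and *Cfd*, and *Pecam1* and *Cdh5*, where the loci of *Cd79a* and *Trbc2* also hold *Arhgef1* and *Trbc1*.

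The genes most like the members were named from the 12543 loci at 1 CPM or more, by r with the mean of the members' standardized log2 levels over the 6 isolates. Among the 10 highest were *Adgrg1*, *Tmem231*, *Ctdspl*, *Stk38l*, *Erbb3*, *Lrfn4*, *Sh3d19*, *Itgb5* and *Pof1b*, with r between 0.9981 and 0.9996. *Adgrg1*, an adhesion G protein-coupled receptor, was at 70.9, 30.9 and 51.3 CPM in *fat-1* and at 70.7, 52.4 and 31.9 CPM in WT. *Erbb3*, a receptor for neuregulins, was at 128, 27.1 and 69.4 CPM in *fat-1* and at 125, 74.9 and 32.3 CPM in WT. The listed targets and relatives nearest to the members were *Rab25*, a small GTPase of epithelial trafficking, at rank 23 and *Tfap2b* at rank 50, and *Pgr* was at rank 32. At the other end, 1195 loci had an r under −0.9, and *Mgst2* (1.65 to 4.004 CPM) was the most opposite.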

How the data were processed

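RNA was measured in 3 *fat-1* and 3 WT pooled isolates, with genotype and replicate taken from the sample labels. The authors mapped paired-end reads with HISAT2 to GRCm38, built transcripts with StringTie and deposited their estimated counts in a single matrix of whole numbers that are not normalized. Their processing notes also name edgeR and DESeq2. The annotation, the strand setting and the conversion of coverage to counts are not given in the sources used here, so counts of overlapping genes are uncertain. Totals per isolate were 204539059 to 232148824, and floors of 3 counts cover counting error only. Whether same-genotype isolates share mice is not stated, so p-values measure the spread between these isolates.

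Rows with the same assembled locus were summed (53912 loci, 5916 of several rows). Loci, and rows as a second unit, were tested with edgeR 4.0.16 in R 4.3.3 (quasi-likelihood test, filterByExpr, TMM, Benjamini–Hochberg over all loci or rows tested, threshold 0.05). DESeq2 1.42.0 was an alternative. The biological coefficient of variation was 0.302 for loci and 0.451 for rows. CPM are relative to the TMM-normalized total. The test was tried before use on simulated counts that varied less between isolates than these data, so the trial does not show its power here. Correlations and permutation tests used log2(CPM + 1), were two-sided and were run with Python 3.11.15 and scipy 1.17.1. Gene positions come from GENCODE on GRCm38.

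The genes, marker lists and tests were chosen with earlier results of these data known. The rule for named genes was all 10 members, the 2 most abundant genes of each list and the 10 loci most like the members, of which 1 is not reported here. *Gata2*, *Myocd* and *Fabp4*, the genes chosen to show an epithelial pattern or absence, and the 12 ratios were chosen after their values were seen. Alternatives were other normalizations, no filter on low counts, another fit and test, a replicate block, a marker covariate, another pseudocount or reference, and leaving out each isolate.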

Additional observations from a re-analysis of the deposited data

How the results depend on the processing

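No member passed a threshold of 0.05 on the adjusted p in any of the settings tried, with an adjusted p from 0.999655 to 1, and the log2 fold change of *Elf5* was negative in all of them. The number of loci at the unadjusted threshold was 274 and became 579 without a filter on low counts, 616 with the epithelial covariate, 678 for rows in place of loci and 204 to 542 when an isolate was left out. The adjusted count of 0 became 8 with DESeq2 and 0 to 1 without an isolate (1 without WT isolate 1). For rows, 678 became 1136 without the filter, and the adjusted count of 0 became 93 with DESeq2 and 0 to 2 without an isolate (2 without WT isolate 1, and 1 without *fat-1* isolate 1 or 2). The other alternatives for these counts stayed within 1.5 times. The labels do not say whether the replicate numbers pair the samples. Same-numbered isolates had correlations of 0.515, −0.0961 and 0.074 between their deviations from the genotype means. These cannot decide it, since *fat-1* isolate 2 and WT isolate 3, both poor in epithelial markers, reached 0.477. With the replicate block, 376 loci passed the unadjusted and 0 the adjusted threshold, and *Ehf* turned to −0.073 and *Grhl2* to −0.097 (for rows, *Ehf* to −0.070). With the covariate *Ehf* was −0.076 and *Grhl2* −0.11, and in rows *Foxa1* was 0.028. With *Epcam* alone as the reference, the relative level of *Elf3* was −0.047 and that of *Spdef* −0.0085, and 3 members did not overlap in place of 1, beside 6.3% of the loci that follow *Epcam*.

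When isolates were left out in turn, the log2 fold change in loci ranged from −0.71 to 0.50 for *Ehf*, −0.53 to 0.52 for *Elf3*, −0.82 to 0.44 for *Foxa1*, −0.47 to 0.25 for *Gata3*, −0.77 to 0.47 for *Grhl2*, −0.39 to 0.88 for *Ovol1*, −0.11 to 0.35 for *Spdef*, −0.63 to 0.27 for *Tbx3* and −0.66 to 0.51 for *Tfap2c*. In rows it ranged from −0.72 to 0.50 for *Ehf*, −0.53 to 0.53 for *Elf3*, −0.64 to 0.78 for *Foxa1*, −0.55 to 0.12 for *Gata3*, −0.80 to 0.97 for *Grhl2*, −0.39 to 0.89 for *Ovol1*, −0.11 to 0.36 for *Spdef*, −0.63 to 0.27 for *Tbx3* and −0.66 to 0.51 for *Tfap2c*. The relative level kept the difference of *Ovol1* between 0.19 and 0.26. That of *Elf5* ranged from −0.79 to −0.20, that of *Foxa1* from −0.28 to −0.078, that of *Gata3* from −0.24 to 0.14, that of *Elf3* from −0.0049 to 0.13, that of *Spdef* from −0.21 to 0.47, that of *Tbx3* from −0.24 to 0.011 and that of *Tfap2c* from −0.19 to 0.058. The share of the symbol row reversed to −6.40 without *fat-1* isolate 1 and −5.09 without WT isolate 2 for *Grhl2*, and to −2.07 without *fat-1* isolate 2 for *Foxa1* (percentage points), with ranges of −6.40 to 14.3 and −2.07 to 10.1. The causes were not tested. Each interval above rests on 3 isolates a genotype.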
